A study of Mus musculus with 36 samples.

Results

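The SLC25 carriers, a family of transport proteins most of which sit in the inner mitochondrial membrane, were followed in inguinal white fat (iWAT, a depot under the skin) and liver of mice on 3 diets. Members were taken by symbol, as Slc25a followed by a number. Of the 46 such genes considered from GENCODE M21, 40 were measured among the 16060 genes of the series, 39 in iWAT and 40 in liver, with Slc25a21 measured in liver only. Slc25a2, Slc25a18, Slc25a31, Slc25a41, Slc25a43 and Slc25a54 were not analysed here. By substrate, the 40 members are 4 carboxylate carriers, 7 nucleotide carriers, 7 amino acid carriers, 1 phosphate carrier, 3 relatives of the uncoupling proteins, 11 carriers of cofactors and metals, and 7 with no substrate assigned here. The family name is broader than its usual place in the cell: Slc25a17 encodes a carrier of the peroxisome and Slc25a46 a protein of the outer mitochondrial membrane.

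All mice were C57BL/6J, and no genetic change is given for any group. They spent 16 weeks under calorie restriction (CR), under time-restricted feeding without calorie restriction (TR, TR.al in the labels) or with food ad libitum (AL), the control diet. Total RNA gave 36 libraries, 6 per diet in each tissue, from 20 mice by diet and number, of which 16 gave both tissues. Setting TR and CR side by side addresses whether fasting without fewer calories gives the response to calorie restriction. The labels give neither sex nor age nor the time of sampling, so the diet and the time since the last meal cannot be told apart.

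Inner membrane carriers move metabolites between the mitochondrial matrix and the cytosol, usually as an exchange of one substrate for another. The citrate carrier Slc25a1 brings citrate to the cytosol, where ATP citrate lyase turns it into the acetyl-CoA from which fatty acids are made. The ADP/ATP carriers Slc25a4 and Slc25a5 and the phosphate carrier Slc25a3 supply ATP synthase and release its product, and uncoupling protein 1 of brown and beige fat lets protons return without ATP synthesis.

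The tables used hold comparisons of groups. Values per library were not analysed here, so the spread between libraries and the depth of each are not known. Their edgeR models give a log2 fold change, a mean level in log2 CPM (counts relative to the size of the library) and an adjusted p for each gene, and a carrier is said to rise or fall where that adjusted p was under 0.05. Group means in CPM were worked out from the deposited fold change and mean, and are called implied means. For the carriers, the AL mean implied by the TR table was 0.991 to 1.009 times that implied by the CR table in liver and 0.965 to 0.999 times in iWAT. An approximate standard error (SE) was found by dividing each log2 fold change, without its sign, by the root of its likelihood-ratio statistic. Its median over the carriers was 0.29 for CR minus AL and 0.34 for TR minus AL in iWAT, and 0.16 for each in liver. Both diet comparisons of a tissue share their AL libraries, so their values are set side by side and not counted as independent.

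The tissues carried their defining transcripts. In iWAT the 8 adipocyte markers summed to 22178 implied CPM in CR, 26424 in TR and 21433 in AL, and in liver the 8 measured hepatocyte markers summed to 138149 in CR, 147687 in TR and 101151 in AL. Other cell types also differed between the iWAT groups. The hepatocyte markers summed to 195 CPM in CR, 6472 in TR and 988 in AL, with 7 of 8 lower in CR and 0 of 8 past the threshold in TR. The 12 skeletal muscle markers summed to 7833 CPM in CR, 476 in TR and 3439 in AL, with 0 past the threshold in CR and 4 lower in TR. The 7 markers of brown or beige adipocytes summed to 542 CPM in CR, 482 in TR and 56.3 in AL, and 6 of 7 rose on each diet. An implied mean is above 0 by the way it is worked out, so it does not show that a marker was detected. The lowest muscle marker had 0.237 CPM in TR iWAT. Apart from the values given beside single carriers below, the part of these other cell types in the carrier results was not tested.

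In iWAT, carriers moved mainly upward on both diets, led by the carboxylate class. In CR, 7 of 39 carriers rose and 0 fell, which is 17.9% against 7.30% of the 15295 genes tested (3.52% of genes rose and 3.78% fell). In TR, 8 of 39 rose and 2 fell, which is 25.6% against 10.0% of the 15356 genes tested (4.76% rose and 5.24% fell). The carriers had a median log2 fold change of 0.32 in CR and 0.35 in TR, against 0.02 and -0.04 over all genes. The 7 that rose in CR, Slc25a1, Slc25a10, Slc25a11, Slc25a33, Slc25a35, Slc25a39 and Slc25a44, also rose in TR. In bulk tissue, fewer cells of a type and less RNA per cell cannot be told apart in any of these changes.

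All 3 carboxylate carriers measured in iWAT rose on both diets. The promoters of these carriers are printed here because the genes moved together. The sequences are RefSeq windows on GRCm38.p6, from 250 bases before to 50 bases after the start site, written 5′ to 3′ on the strand of the gene. The Slc25a11 window, with its RefSeq start at 70647039, lies wholly inside the GENCODE gene. That gene has its outermost 5′ end further upstream, at 70647479. Capitals mark matches to the motifs searched.
Slc25a1 (chr16:17928170-17928469, minus strand): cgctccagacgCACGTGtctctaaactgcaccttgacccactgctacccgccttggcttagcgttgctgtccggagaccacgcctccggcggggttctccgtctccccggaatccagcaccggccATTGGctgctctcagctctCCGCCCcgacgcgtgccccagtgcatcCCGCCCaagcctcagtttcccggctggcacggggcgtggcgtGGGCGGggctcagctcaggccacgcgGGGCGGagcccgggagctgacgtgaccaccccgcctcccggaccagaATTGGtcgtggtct
Slc25a10 (chr11:120491587-120491886, plus strand): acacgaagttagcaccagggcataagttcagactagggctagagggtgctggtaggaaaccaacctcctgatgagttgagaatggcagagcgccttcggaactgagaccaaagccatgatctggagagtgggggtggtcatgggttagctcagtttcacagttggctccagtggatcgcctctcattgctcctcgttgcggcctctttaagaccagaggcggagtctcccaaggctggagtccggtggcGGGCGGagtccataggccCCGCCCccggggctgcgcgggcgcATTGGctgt
Slc25a11 (chr11:70646990-70647289, minus strand): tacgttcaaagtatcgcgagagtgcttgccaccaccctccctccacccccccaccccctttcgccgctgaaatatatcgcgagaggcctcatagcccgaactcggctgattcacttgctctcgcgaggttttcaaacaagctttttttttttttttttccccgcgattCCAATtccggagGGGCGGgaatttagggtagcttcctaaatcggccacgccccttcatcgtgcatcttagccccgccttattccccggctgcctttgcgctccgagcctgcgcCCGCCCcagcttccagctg

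The capitals in the Slc25a1 window are an E-box, 2 CCAAT boxes and 4 GC boxes, while the Slc25a10 and Slc25a11 windows each hold 1 CCAAT box and 2 GC boxes. Of the 7 motifs searched on both strands, the E-box CACGTG was in 7.15% of 32817 RefSeq windows, CCAAT in 37.4% and the GC box GGGCGG in 35.6%. The sterol regulatory element TCACNCCAC was in 1.24% of windows, the NRF1 site in 4.59%, the ERR site AAGGTCA in 4.72% and the cAMP response element TGACGTCA in 1.79%. No match overlapped another in the windows printed. RefSeq windows were at hand for 31 of the 40 members, 41 windows in all, of which 35 held a GC box, 22 a CCAAT box and 7 an E-box. The cAMP response element was in 2 of the 41, the NRF1 and ERR sites in 1 each, and the sterol regulatory element in 0. A match is a stretch of letters and not a measured site of binding.

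Slc25a1, the citrate carrier (ENSMUSG00000003528, GRCm38 chromosome 16 from 17925223 to 17928219, minus strand), had implied means of 1902 CPM in CR, 2688 in TR and 251 in AL iWAT. The CR and TR means lie far above the AL mean, while in liver the 3 means lie close together at 158 CPM in CR, 164 in TR and 148 in AL. In the authors' deposited tables the log2 fold change in iWAT was 2.91 in CR (approximate SE 0.46, adjusted p = 5.6e-08) and 3.43 in TR (approximate SE 0.34, adjusted p = 7.5e-20). By p it ranked 3 of the 15356 genes of the TR table. In liver the deposited log2 fold changes were 0.10 in CR (adjusted p = 0.67, approximate 95% interval -0.13 to 0.34) and, for TR, 0.15 (adjusted p = 0.43, interval -0.09 to 0.40).

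Slc25a10, the dicarboxylate carrier, which exchanges malate and succinate for phosphate (chromosome 11 from 120491840 to 120499187, plus strand), had implied means of 340 CPM in CR, 385 in TR and 76.0 in AL iWAT. The deposited tables give it a log2 fold change of 2.15 in CR (approximate SE 0.31, adjusted p = 1.5e-09) and 2.35 in TR (approximate SE 0.38, adjusted p = 1.1e-07). Its liver means were 116 CPM in CR, 142 in TR and 132 in AL, with CR below and TR above AL and neither past the threshold. An annotated antisense transcript, Gm11788, overlaps Slc25a10 by 555 bases and was not analysed here. Slc25a11, the 2-oxoglutarate carrier of the malate-aspartate shuttle (chromosome 11 from 70644196 to 70647479, minus strand), had 131 CPM in CR, 158 in TR and 74.7 in AL iWAT. It rose by 0.80 in CR (approximate SE 0.21, adjusted p = 0.0050) and by 1.09 in TR (approximate SE 0.29, adjusted p = 0.0044) in the deposited tables. Slc25a11 overlaps Rnf167 on the other strand by 245 bases, and the sources do not say whether reads were counted by strand. Rnf167 itself was at 0.33 in CR (adjusted p = 0.50) and, for TR, 0.29 (adjusted p = 0.56) in iWAT.

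**Figure D1:**
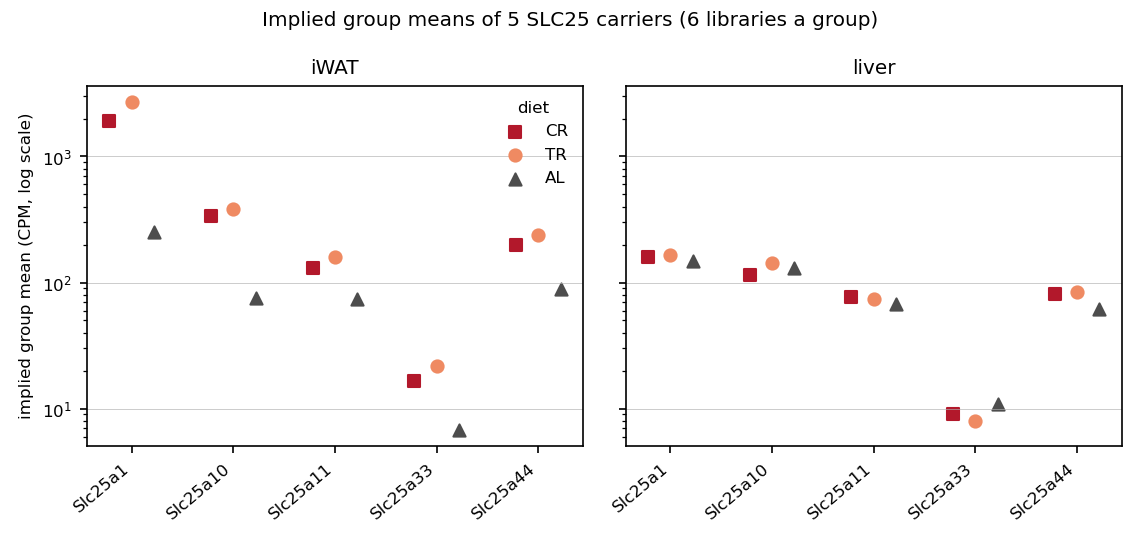
Implied group means in CPM (log axis) of 5 carriers in iWAT (left) and liver (right), with squares for CR, circles for TR and triangles for AL, each the mean of 6 libraries as implied by the authors' deposited tables, with no error known. In iWAT the CR and TR marks stand above AL for all 5 carriers, as with the 1902 and 2688 CPM of Slc25a1 against 251 in AL, while the liver marks lie closer together.

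The markers of brown or beige adipocytes given above rose on the same diets as the 3 carboxylate carriers, and their part in that rise was not tested. The share of the carboxylate class in the carrier pool of iWAT also differed. Summed over the 39 carriers, implied means came to 5359 CPM in CR, 6350 in TR and 2544 in AL iWAT, and over the 40 carriers of liver to 3232 CPM in CR, 3359 in TR and 2907 in AL. Slc25a1 alone made up 35.5% of that sum in CR, 42.3% in TR and 9.87% in AL iWAT. In liver its share was 4.89% in CR, 4.89% in TR and 5.07% in AL. The 3 carboxylate carriers together were 44.3% of the sum in CR, 50.9% in TR and 15.8% in AL iWAT. Such sums count reads and not molecules, since longer transcripts give more reads, and no error is known for them.

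The genes listed here for citrate export rose as well in iWAT. All 6 genes of the citrate export list rose on both diets, with a median log2 fold change of 2.45 in CR and 2.63 in TR. Of all genes, 7.30% were called in CR iWAT and 10.0% in TR iWAT. Acly, ATP citrate lyase, had 6566 implied CPM in CR and 954 in AL iWAT, and 6305 in TR and 947 in AL from the TR table. Its deposited log2 fold changes were 2.78 in CR (adjusted p = 3.9e-04) and, for TR, 2.74 (adjusted p = 3.1e-10). Me1, malic enzyme, had 2.53 in CR and 2.71 in TR, Acaca, acetyl-CoA carboxylase, 2.37 in CR and 2.55 in TR, and Fasn, fatty acid synthase, 2.61 in CR and 2.71 in TR in the deposited tables. Slc25a1 was not past the threshold in liver, where 11.2% of all genes were called in CR and 18.9% in TR. There 3 of the 6 list genes rose on each diet in the deposited tables. These were Acly by 1.34 in CR and 1.01 in TR, Acaca by 1.07 in CR and 1.21 in TR, and Fasn by 1.61 in CR and 1.96 in TR.

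Slc25a21, the carrier of 2-oxoadipate and 2-oxoglutarate and the fourth of the class, was measured in liver. Its implied means were 9.07 CPM in CR, 7.03 in TR and 11.0 in AL liver, the lowest being TR. It fell in TR by 0.65 on the log2 scale (approximate SE 0.16, adjusted p = 5.5e-04), and the CR value of -0.28 was not past the threshold (adjusted p = 0.29) in the deposited tables. Of the 4 measured genes of the malate-aspartate shuttle list, 2 rose in iWAT on each diet, the malate dehydrogenases Mdh1 (1.05 in CR and 1.39 in TR) and Mdh2 (1.05 in CR and 1.28 in TR), and in liver 1 rose in TR, the aspartate aminotransferase Got1 (0.69), in the deposited tables. Of all genes, 7.30% were called in CR iWAT, 10.0% in TR iWAT, 11.2% in CR liver and 18.9% in TR liver.

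Nucleotide carriers were split by member. In CR iWAT, 1 of 7 rose against AL (14.3%, against 7.30% of all genes called). In TR iWAT, 2 rose and 1 fell (42.9% against 10.0%). For liver, 1 rose in CR (14.3% against 11.2%), and 1 rose and 1 fell in TR (28.6% against 18.9%). Slc25a33, a carrier of pyrimidine nucleotides, changed in both tissues in opposite directions in TR. Its implied means were 16.7 CPM in CR, 22.0 in TR and 6.79 in AL iWAT, and 9.01 in CR, 7.97 in TR and 10.9 in AL liver. In iWAT it rose by 1.28 in CR (approximate SE 0.35, adjusted p = 0.0067) and 1.70 in TR (approximate SE 0.38, adjusted p = 3.1e-04) in the deposited tables. In liver the deposited log2 fold change was -0.27 in CR (adjusted p = 0.24) and -0.46 in TR (approximate SE 0.16, adjusted p = 0.029), the last past the threshold. An annotated antisense transcript, Gm13068, overlaps Slc25a33 by 1090 bases and was not analysed here.

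Slc25a5, the ADP/ATP carrier of most tissues, had 498 implied CPM in CR, 565 in TR and 296 in AL iWAT. It rose in TR by 0.94 (approximate SE 0.27, adjusted p = 0.011), and its CR value of 0.74 (adjusted p = 0.091) was not past the threshold in the deposited tables. Slc25a4, the ADP/ATP carrier of heart and skeletal muscle, had 296 CPM in CR, 212 in TR and 207 in AL iWAT, with deposited log2 fold changes of 0.51 in CR (adjusted p = 0.45) and, for TR, 0.04 (adjusted p = 0.95). Near-identical copies of both genes elsewhere in the genome were not looked for, so how reads were divided among any such copies is uncertain. Slc25a24, a calcium-regulated ATP-Mg/phosphate carrier, had the opposite direction: 9.78 CPM in CR, 7.28 in TR and 18.9 in AL iWAT. It fell in TR by 1.37 on the log2 scale (approximate SE 0.40, adjusted p = 0.012), and the CR value was -0.95 (adjusted p = 0.059), in the deposited tables.

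Slc25a25, another calcium-regulated ATP-Mg/phosphate carrier, was the nucleotide carrier that rose in liver. Implied means were 147 CPM in CR, 160 in TR and 80.0 in AL liver, so both diets stood at nearly the same level above AL. The deposited log2 fold changes were 0.89 in CR (approximate SE 0.15, adjusted p = 4.2e-07) and 0.99 in TR (approximate SE 0.15, adjusted p = 7.0e-09). Its iWAT means were 92.3 CPM in CR, 117 in TR and 69.2 in AL, and the values of 0.41 in CR (adjusted p = 0.47) and, for TR, 0.76 (adjusted p = 0.15) were not past the threshold. The effects in iWAT and liver did not differ past the threshold in the approximate test of the tissue difference (adjusted p = 0.48 in CR and 0.77 in TR). Naif1, a gene that overlaps Slc25a25 by 989 bases on the other strand, had deposited liver values of 0.01 in CR (adjusted p = 0.98) and, for TR, 0.44 (adjusted p = 0.059).

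At the transcript level, 3 of 99 carrier transcripts rose in CR liver and 4 of 100 in TR liver, where 2.66% and 3.94% of all transcripts changed. Among them were 2 Slc25a25 transcripts with different start sites. Slc25a25-205 had 75.4 implied CPM in CR and 37.6 in AL, and 85.4 in TR and 37.6 in AL from the TR table. Its deposited log2 fold changes were 1.01 in CR (adjusted p = 9.8e-05) and, for TR, 1.18 (adjusted p = 1.6e-06). Slc25a25-203, which starts further downstream, had 65.8 CPM in CR and 39.7 in AL, and 67.5 in TR, with 0.73 in CR (adjusted p = 0.0036) and, for TR, 0.76 (adjusted p = 4.3e-04) in the deposited transcript tables. The RefSeq windows nearest to both starts follow, on GRCm38.p6, with start sites 25 bases from that of Slc25a25-205 and 61 bases from that of Slc25a25-203. They are shown because the rise was seen from both starts, and capitals again mark motif matches.
Slc25a25 upstream start (chr2:32451421-32451720, minus strand): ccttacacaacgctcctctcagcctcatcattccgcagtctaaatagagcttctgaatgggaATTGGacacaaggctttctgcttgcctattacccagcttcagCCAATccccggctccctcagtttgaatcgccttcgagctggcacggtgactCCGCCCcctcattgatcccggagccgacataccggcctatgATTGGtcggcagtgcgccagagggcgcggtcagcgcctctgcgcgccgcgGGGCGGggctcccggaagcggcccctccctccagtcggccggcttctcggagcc
Slc25a25 downstream start (chr2:32424017-32424316, minus strand): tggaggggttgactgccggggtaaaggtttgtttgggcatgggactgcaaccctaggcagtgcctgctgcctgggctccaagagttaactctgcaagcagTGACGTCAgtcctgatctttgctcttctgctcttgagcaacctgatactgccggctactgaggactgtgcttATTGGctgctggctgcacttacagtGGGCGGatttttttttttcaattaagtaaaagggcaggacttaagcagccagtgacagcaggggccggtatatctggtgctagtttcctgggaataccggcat

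The upstream window holds 3 CCAAT boxes and 2 GC boxes, and the downstream window holds 1 CCAAT box, 1 GC box and the cAMP response element TGACGTCA, which starts 150 bases before the start site. That element was in the windows of 2 of the 31 members with a window, Slc25a25 and Slc25a36. Slc25a36, the other pyrimidine nucleotide carrier, stood at -0.15 in CR and -0.29 in TR for iWAT and at -0.08 in CR and 0.06 in TR for liver on the log2 scale of the deposited tables, none past the threshold.

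Among amino acid carriers, Slc25a44 was the one that rose in both tissues on both diets. Slc25a44 carries branched-chain amino acids into mitochondria and is known for that role in brown fat. Its implied means were 197 CPM in CR, 236 in TR and 88.7 in AL iWAT, and 81.4 in CR, 83.5 in TR and 61.6 in AL liver. In iWAT the deposited log2 fold change was 1.15 in CR (approximate SE 0.29, adjusted p = 0.0025) and 1.42 in TR (approximate SE 0.34, adjusted p = 0.0010). In liver it was 0.41 in CR (approximate SE 0.10, adjusted p = 0.0019) and 0.43 in TR (approximate SE 0.13, adjusted p = 0.0059). The iWAT effect was larger by 0.74 in CR (adjusted p = 0.13) and, for TR, 0.99 (adjusted p = 0.071), and neither difference passed the threshold. In iWAT, 7 of 107 carrier transcripts rose in CR (2.45% of all transcripts changed), and 13 of 105 rose and 1 fell in TR (3.55% changed). The Slc25a44 transcripts that rose were Slc25a44-203 (1.96, adjusted p = 5.3e-04) and Slc25a44-202 (1.61, adjusted p = 0.016) in TR iWAT, in the deposited transcript table. No Slc25a44 transcript passed the threshold in CR iWAT or in liver. The most abundant, Slc25a44-201, had 1.08 in CR (adjusted p = 0.83) and, for TR, 1.04 (adjusted p = 0.81) in iWAT. In liver Slc25a44-201 had 0.38 in CR (adjusted p = 0.98) and, for TR, 0.62 (adjusted p = 0.60). The markers of brown or beige adipocytes given above rose on the same 2 diets, and their part in the rise of Slc25a44 was not tested.

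Slc25a29, a carrier of basic amino acids, had 1.70 implied CPM in CR, 2.34 in TR and 1.21 in AL liver. It rose in TR by 0.95 (approximate SE 0.23, adjusted p = 6.2e-04), and its CR value of 0.49 (adjusted p = 0.26) was not past the threshold in the deposited tables. This is a low level, and the gene dropped out when genes with a log2 mean CPM under 1 were removed. The neighbouring Slc25a47, a carrier known for its high level in liver and grouped here with carriers of no assigned substrate, rose in TR liver too, by 0.69 (approximate SE 0.22, adjusted p = 0.013). Slc25a47 had 103 CPM in CR, 136 in TR and 83.8 in AL liver, and its CR value was 0.31 (adjusted p = 0.37). Slc25a29 and Slc25a47 lie on opposite strands of chromosome 12 with 162 bases between their outermost annotated ends.

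The other amino acid carriers were not past the threshold against AL in either tissue. Among them and Slc25a47, 3 carriers of high liver level are given for iWAT beside the hepatocyte markers, chosen after their values were seen. Slc25a13, the aspartate/glutamate carrier citrin of liver, had 1.04 implied CPM in CR, 8.23 in TR and 2.93 in AL iWAT. Its deposited log2 fold change was -1.52 in CR (adjusted p = 0.16) and, for TR, 1.52 (adjusted p = 0.39), with approximate 95% intervals of -2.81 to -0.22 and -0.52 to 3.55. Slc25a47 had 2.12 CPM in CR, 6.24 in TR and 3.42 in AL iWAT, and Slc25a15, the ornithine carrier of the urea cycle, 16.9 in CR, 27.4 in TR and 17.1 in AL. The deposited log2 fold changes of Slc25a47 were -0.71 in CR (adjusted p = 0.43) and, for TR, 0.88 (adjusted p = 0.41), and those of Slc25a15 were -0.03 in CR (adjusted p = 0.97) and, for TR, 0.69 (adjusted p = 0.38). The 8 hepatocyte markers had medians of -3.87 in CR and 2.32 in TR. The muscle markers had medians of 1.22 in CR and -2.84 in TR, and Slc25a12, the aspartate/glutamate carrier of muscle and brain, had 29.8 CPM in CR, 13.1 in TR and 19.9 in AL iWAT. The part of these cell types in the values of the 4 carriers was not tested.

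**Figure D2:**
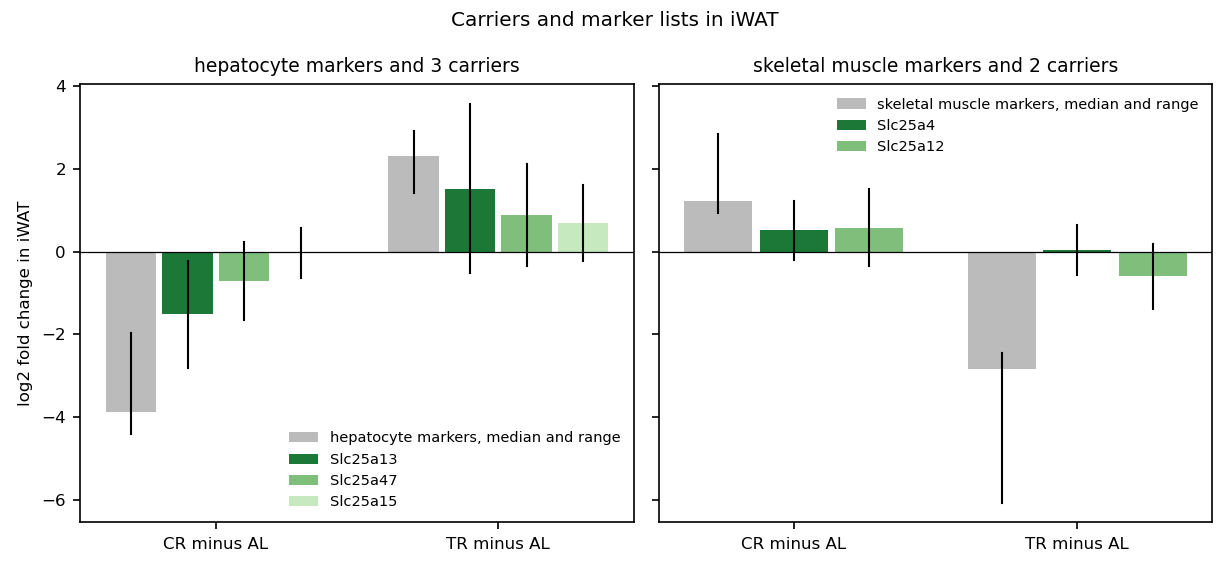
Log2 fold changes in iWAT (vertical axis) for CR minus AL and TR minus AL, with grey bars for the median of a marker list and black lines for its range, and green bars for single carriers with approximate 95% intervals. The left panel shows 8 hepatocyte markers (medians -3.87 in CR and 2.32 in TR) with Slc25a13, Slc25a47 and Slc25a15, and the right panel 12 skeletal muscle markers (medians 1.22 and -2.84) with Slc25a4 and Slc25a12, of which none was past the threshold.

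The phosphate carrier Slc25a3 had 451 implied CPM in CR, 517 in TR and 340 in AL iWAT, and 300 in CR, 289 in TR and 279 in AL liver. Its deposited log2 fold changes in iWAT were 0.40 in CR (adjusted p = 0.42) and, for TR, 0.62 (adjusted p = 0.13), and in liver 0.11 in CR (adjusted p = 0.61) and, for TR, 0.04 (adjusted p = 0.83). One transcript, Slc25a3-203, rose in TR iWAT by 1.24 (approximate SE 0.35, adjusted p = 0.017) in the deposited transcript table, with 160 CPM in TR and 67.7 in AL. The 3 relatives of the uncoupling proteins, Slc25a14, Slc25a27 and Slc25a30, had 0 calls in either tissue. By the authors' edgeR test, 1 of 3 had an unadjusted p under 0.05 in CR liver, TR liver and TR iWAT, and 0 of 3 in CR iWAT. Over all genes, 2887 of 12636 were under that value in CR liver and 3912 of 12691 in TR liver. For iWAT these counts were 3010 of 15295 genes in CR and 3526 of 15356 in TR. Slc25a30, the highest of the 3 relatives per kilobase in both tissues, had 9.43 CPM in CR, 7.76 in TR and 9.66 in AL iWAT and 13.5 in CR, 17.3 in TR and 13.1 in AL liver.

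The uncoupling proteins proper belong to the same family under other symbols. Ucp1 rose in iWAT to 26.3 implied CPM in CR, against 1.51 in AL, and to 11.0 in TR, against 1.49 in AL from the TR table. Ucp2 had 153 CPM in CR, 126 in TR and 117 in AL iWAT, and Ucp3, a muscle and brown fat form, 108 in CR, 106 in TR and 71.6 in AL. Their deposited log2 fold changes were 0.39 in CR (adjusted p = 0.60) and, for TR, 0.14 (adjusted p = 0.85) for Ucp2, and 0.59 in CR (adjusted p = 0.14) and, for TR, 0.57 (adjusted p = 0.20) for Ucp3. In liver Ucp2 had -0.12 in CR (adjusted p = 0.75) and, for TR, -0.06 (adjusted p = 0.84), while Ucp1 and Ucp3 were not analysed here in liver. Mtch2, an outer membrane relative that inserts proteins, rose in TR iWAT by 0.94 (adjusted p = 0.029) in the deposited table.

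Of the 11 carriers of cofactors and metals, 1 rose in CR iWAT (9.09%, against 7.30% of all genes called) and 1 rose and 1 fell in TR iWAT (18.2% against 10.0%). In liver 3 rose in CR (27.3% against 11.2%) and 2 in TR (18.2% against 18.9%). Slc25a51, which brings NAD into mitochondria, had 57.7 implied CPM in CR, 56.4 in TR and 34.0 in AL liver. Its deposited log2 fold change was 0.77 in CR (approximate SE 0.12, adjusted p = 4.0e-09) and 0.73 in TR (approximate SE 0.13, adjusted p = 2.6e-06). In iWAT the values were close to these, 0.65 in CR (adjusted p = 0.071) and, for TR, 0.61 (adjusted p = 0.18), with wider approximate intervals of 0.18 to 1.12 and 0.04 to 1.18. Slc25a37, mitoferrin-1, which brings iron for heme synthesis, had 77.4 CPM in CR, 80.6 in TR and 61.5 in AL liver. It rose by 0.34 in CR (adjusted p = 0.023) and, for TR, 0.39 (adjusted p = 0.0036) in the deposited tables. Annotated genes that were not analysed here overlap Slc25a37. Among them are Gm20236, by 4540 bases on the same strand, and Gm27222, by 2892 bases on the other strand. Slc25a17, the peroxisomal carrier of CoA and nucleotide cofactors, had 68.0 CPM in CR, 60.2 in TR and 55.8 in AL liver, with a rise of 0.29 in CR (adjusted p = 0.036) and a value of 0.10 in TR (adjusted p = 0.52) in the deposited tables.

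In iWAT the member of this class that rose was Slc25a39, the mitochondrial glutathione importer. It had 168 implied CPM in CR, 184 in TR and 86.8 in AL iWAT, with deposited log2 fold changes of 0.95 in CR (approximate SE 0.28, adjusted p = 0.014) and 1.09 in TR (approximate SE 0.34, adjusted p = 0.021). In liver it had 274 CPM in CR, 332 in TR and 264 in AL, with neither diet past the threshold. Slc25a42, a coenzyme A carrier, was the one that fell, with 28.7 CPM in CR, 26.7 in TR and 48.1 in AL iWAT. Its deposited value was -0.84 in TR (approximate SE 0.27, adjusted p = 0.028) and -0.75 in CR (adjusted p = 0.060). In the transcript table the fall was past the threshold in TR for Slc25a42-204, a retained-intron transcript (-2.61, adjusted p = 0.034), while the most abundant transcript, Slc25a42-202, had -0.46 (adjusted p = 0.69).

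Of the carriers with no assigned substrate, Slc25a35 rose in iWAT and Slc25a34 in TR liver. Slc25a35 had 97.9 implied CPM in CR, 102 in TR and 50.3 in AL iWAT, against levels of 3.01 in CR, 3.27 in TR and 3.05 in AL liver. Its deposited log2 fold changes in iWAT were 0.95 in CR (approximate SE 0.25, adjusted p = 0.0039) and 1.03 in TR (approximate SE 0.29, adjusted p = 0.0090), and the transcript that rose was Slc25a35-202 (1.25 in CR and 1.41 in TR). Rangrf, which overlaps Slc25a35 by 1882 bases on the other strand, had -0.01 in CR (adjusted p = 0.99) and, for TR, 0.08 (adjusted p = 0.94) in iWAT in the deposited tables. Slc25a34 had 4.37 CPM in CR, 6.13 in TR and 3.91 in AL liver, a rise of 0.65 in TR (approximate SE 0.22, adjusted p = 0.025) and a value of 0.17 in CR (adjusted p = 0.72).

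Counted over the whole family, liver showed 5 of 40 carriers higher and 0 lower in CR, which is 12.5% against 11.2% of the 12636 genes tested (5.79% higher and 5.37% lower). In TR liver 7 of 40 were higher and 2 lower, which is 22.5% against 18.9% of the 12691 genes tested (9.35% higher and 9.54% lower). The shares of carriers called in liver are therefore near those of all genes. The carriers of liver had a median log2 fold change of 0.09 in CR and 0.11 in TR, against 0.00 in each over all genes. Slc25a25, Slc25a37, Slc25a44 and Slc25a51 rose on both diets. Over the 4 comparisons with AL, 18 of the 40 carriers were past the threshold at least once, 10 in iWAT and 10 in liver, with Slc25a33 and Slc25a44 in both tissues.

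**Figure D3:**
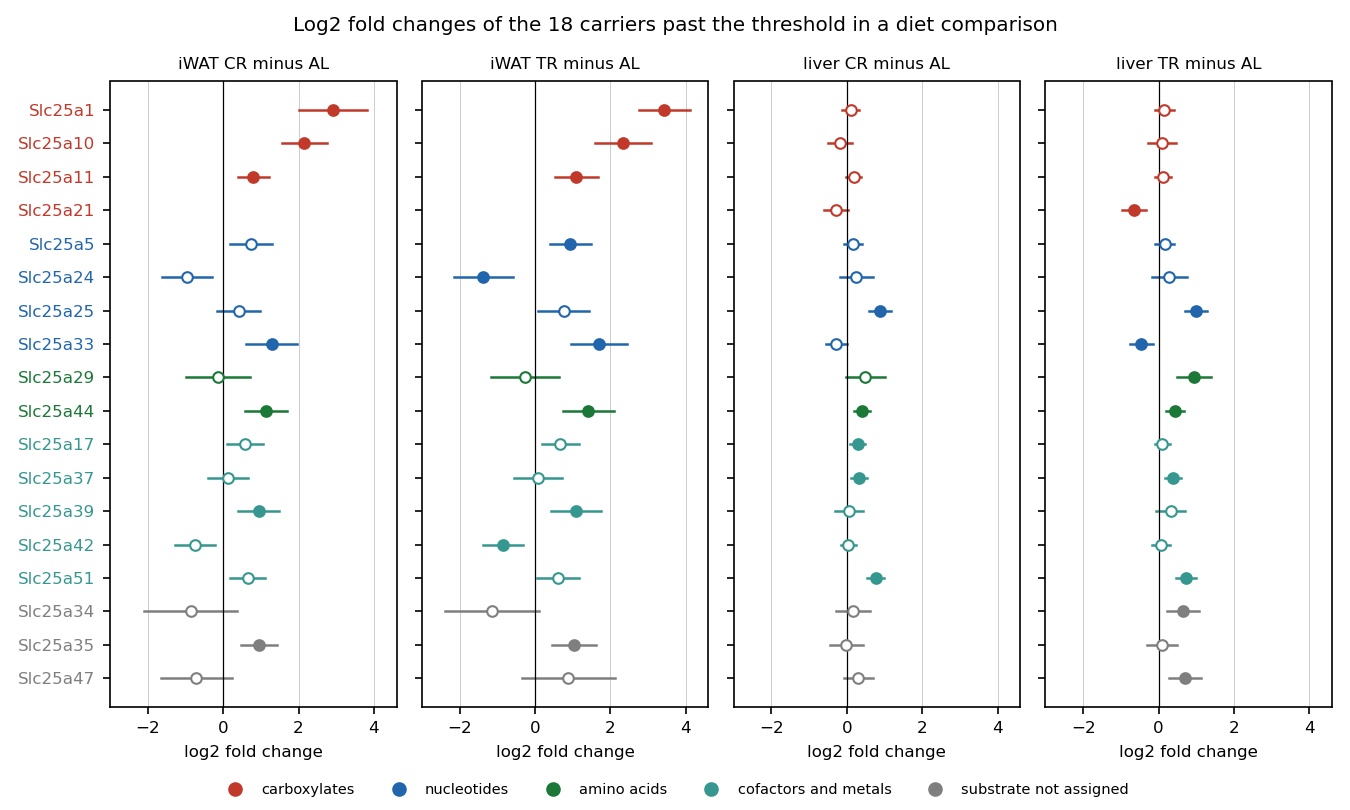
Log2 fold changes against AL (horizontal axes) with approximate 95% intervals for the 18 carriers past an adjusted p of 0.05 at least once, in iWAT (2 left panels) and liver (2 right panels), coloured by substrate class, with filled points past the threshold and open points not. The 3 carboxylate carriers measured in iWAT stand to the right of 0 on both diets, from 0.80 to 3.43, while their liver points lie between -0.18 and 0.18.

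No carrier passed the threshold between CR and TR. In the direct comparison CR minus TR, 0 of 39 carriers passed in iWAT (0.918% of 14699 genes did, 0.0612% higher and 0.857% lower) and 0 of 40 in liver (0.469% of 12593 genes, 0.159% higher and 0.310% lower) by the authors' edgeR test. At an unadjusted p under 0.05 there were 3 of 39 carriers in iWAT, beside 532 of all 14699 genes. In liver there were 6 of 40 carriers, beside 1263 of all 12593 genes. Slc25a1 had a log2 difference of -0.60 in iWAT (approximate 95% interval -1.25 to 0.06, adjusted p = 1.00) and -0.05 in liver (interval -0.29 to 0.19, adjusted p = 0.95) in the deposited tables. In iWAT the carboxylate carriers had values between -0.60 and -0.27, so their TR means were above their CR means in each case. An interval that spans 0 does not show that the diets act alike.

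Whether a diet acted differently in iWAT and liver was tested per gene as the difference of both log2 fold changes over their combined approximate SE, adjusted over the 12012 genes in both tissues for CR and the 12201 for TR. In CR, 4 of 39 carriers differed, 3 with the higher effect in iWAT and 1 with the lower, against 6.73% of genes (3.09% higher and 3.65% lower). In TR, 6 of 39 differed, 4 higher and 2 lower in iWAT, against 7.81% of genes (4.16% higher and 3.65% lower). Slc25a1 differed by 2.81 in CR (approximate SE 0.47, adjusted p = 9.6e-07) and by 3.28 in TR (approximate SE 0.37, adjusted p = 4.8e-16). Slc25a10 differed by 2.33 in CR (adjusted p = 1.0e-08) and, for TR, 2.25 (adjusted p = 1.5e-05), and Slc25a11 by 0.97 in TR (adjusted p = 0.028) and 0.62 in CR (adjusted p = 0.091). All 3 carboxylate carriers measured in both tissues thus differed in TR, and 2 of 3 in CR, but the TR difference of Slc25a11 was lost when the tissues of a mouse were taken to correlate at -0.3 (adjusted p = 0.071).

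The other tissue differences lay among the nucleotide carriers and Slc25a42. Slc25a33 had an effect higher in iWAT than in liver by 1.56 in CR (adjusted p = 0.0022) and, for TR, 2.16 (adjusted p = 1.7e-05). Slc25a24 had an effect lower in iWAT than in liver by -1.21 in CR (adjusted p = 0.047) and, for TR, -1.65 (adjusted p = 0.010), and Slc25a42 by -0.91 in TR (adjusted p = 0.035). The liver level of Slc25a24 was low, with 1.68 implied CPM in CR, 1.72 in TR and 1.41 in AL. Slc25a24 dropped out on both diets when genes with a log2 mean CPM under 1 were removed. At the same correlation of -0.3 the CR difference of Slc25a24 (adjusted p = 0.13) and the TR difference of Slc25a42 (adjusted p = 0.090) were lost as well. No amino acid, phosphate or uncoupling carrier differed between the tissues past the threshold on either diet.

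**Figure D4:**
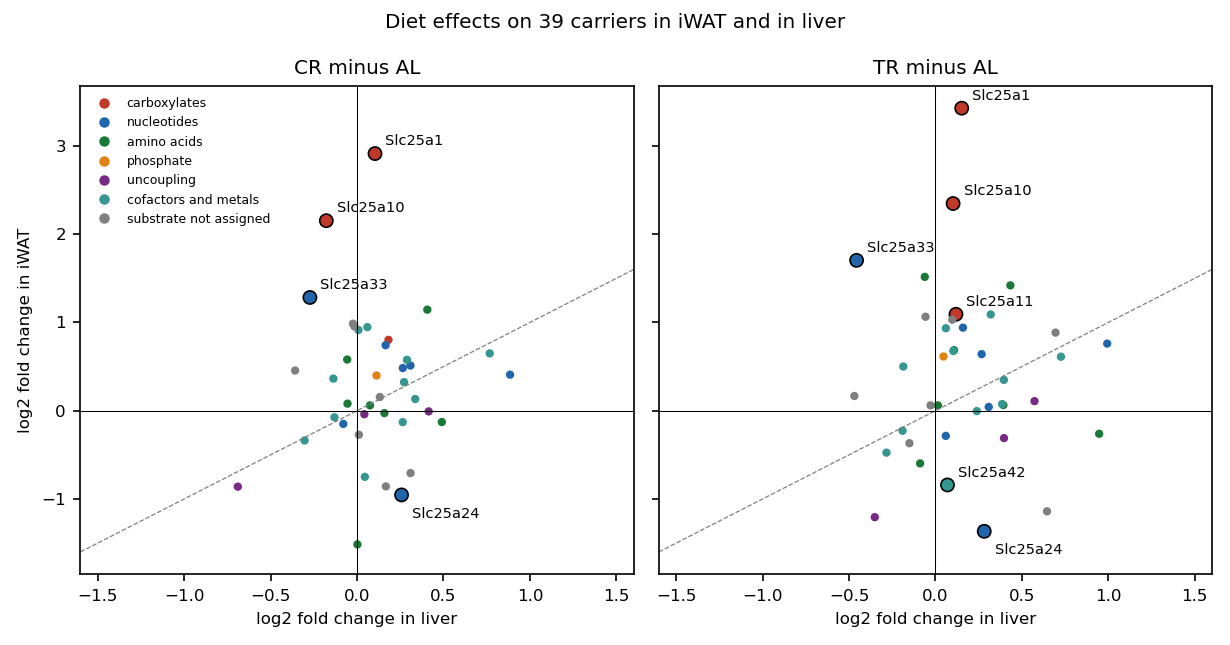
Log2 fold change in iWAT (vertical axis) against log2 fold change in liver (horizontal axis) for 39 carriers, CR minus AL on the left and TR minus AL on the right, coloured by substrate class, with a dashed line of equal effects. Large ringed points with a name are carriers whose effects differed between the tissues at an adjusted p under 0.05, 4 in CR and 6 in TR, with Slc25a1 at 2.91 in iWAT and 0.10 in liver in CR.

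The tissues also differed in which carriers they held under the control diet. The levels below come from tables normalized separately for each tissue, so they are set side by side as a description with no test. Per kilobase of transcript, the leading carriers of AL iWAT were Slc25a3 (267 implied CPM per kb), Slc25a5 (241), Slc25a1 (209) and Slc25a4 (109). In AL liver they were Slc25a5 (345 CPM per kb), Slc25a3 (218), Slc25a39 (198), Slc25a1 (120) and Slc25a15 (85.2). Carriers with a level in AL iWAT at least 4 times that in AL liver included Slc25a4, Slc25a36, Slc25a35 and Slc25a24. Slc25a4 had 207 CPM in AL iWAT and 2.63 in AL liver, a ratio of 78.5. In TR iWAT, where the muscle markers summed to 476 CPM against 3422 in AL from the TR table, Slc25a4 had 212 CPM against 207 in AL, and in CR iWAT, where they summed to 7833 against 3439, it had 296. At least 4 times lower in AL iWAT were 3, Slc25a13 (2.93 CPM in iWAT and 239 in liver), Slc25a47 (3.42 and 83.8) and Slc25a15 (17.1 and 293).

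Within the substrate classes the leading member per kilobase was the same in both tissues for carboxylates (Slc25a1), nucleotides (Slc25a5) and uncoupling relatives (Slc25a30). It differed for amino acids, with Slc25a22, a glutamate carrier, in AL iWAT (43.6 CPM per kb) and Slc25a15 in AL liver. It also differed for carriers with no assigned substrate, with Slc25a35 in iWAT (22.8 CPM per kb) and Slc25a47 in liver (52.4). Slc25a22 had 107 CPM in CR, 106 in TR and 102 in AL iWAT, at 0.06 on the log2 scale on each diet.

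**Figure D5:**
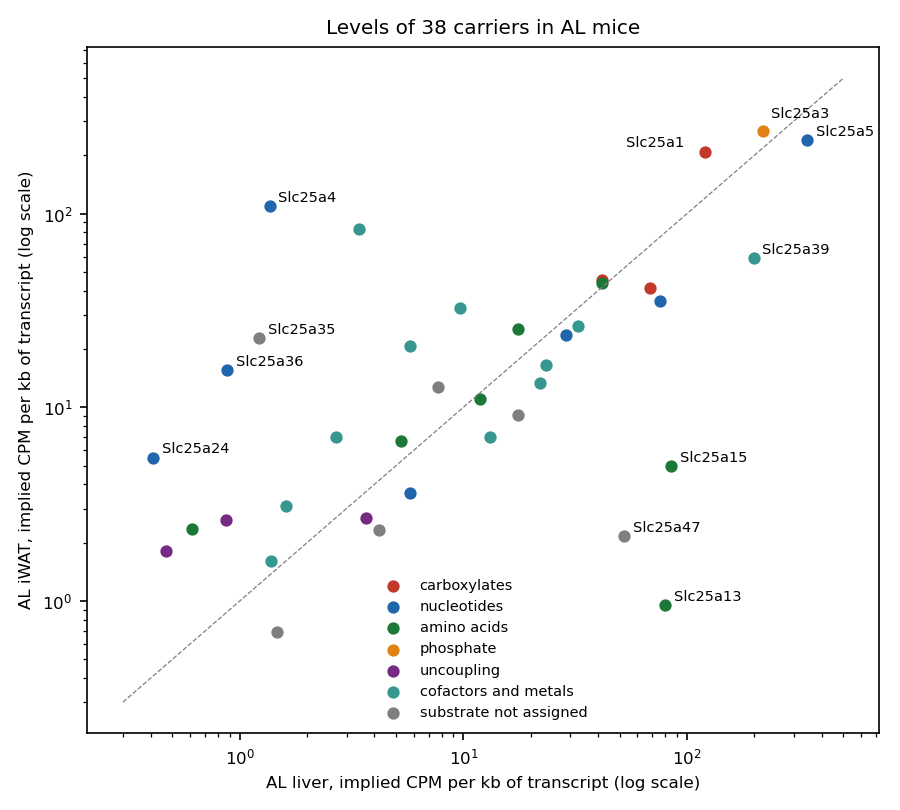
Implied CPM per kilobase of transcript in AL iWAT (vertical log axis) against AL liver (horizontal log axis) for carriers with a transcript length in both tissues, coloured by substrate class, with a dashed line of equal levels. Names are given for some carriers, such as Slc25a4 at 109 in iWAT and 1.37 in liver and Slc25a13 at 0.956 and 80.1.

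The genes that bring carriers to the inner membrane were measured beside them. Of 16 measured genes of the import machinery, 1 rose in CR iWAT and 4 in TR iWAT, with 0 lower. Over all genes, 7.30% were called in CR iWAT and 10.0% in TR iWAT. The median log2 fold change of the 16 in iWAT was 0.53 in CR and 0.64 in TR. Timm22, the channel subunit of the carrier translocase, had 40.6 implied CPM in CR and 20.9 in AL iWAT, and rose by 0.96 in CR (adjusted p = 0.012) and, for TR, 1.29 (adjusted p = 6.8e-04) in the deposited tables. The others that rose in TR iWAT were Timm8a1 (0.90), Timm8b (0.81) and Timm29 (0.82). In liver 1 of 16 rose in CR, Timm8a1 (0.32), and in TR 1 rose, Timm10 (0.45), and 1 fell, Agk (-0.57). Over all genes, 11.2% were called in CR liver and 18.9% in TR liver. Of the 3 outer membrane porins, 1 rose in liver on each diet, Vdac1 (0.33 in CR and 0.31 in TR), and 0 passed in iWAT, where their medians were 0.55 in CR and 0.65 in TR with 0.02 and -0.04 over all genes. The iWAT values of the porins ran from 0.50 to 0.75 in CR and from 0.57 to 0.69 in TR. By the authors' edgeR test, all 3 porins had an unadjusted p under 0.05 in iWAT on each diet. So did 3010 of 15295 genes in CR iWAT and 3526 of 15356 in TR iWAT.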

How the data were processed

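Bulk RNA-seq of 36 libraries was analysed through the authors' 12 deposited comparison tables, 6 of genes and 6 of transcripts. Per the submitters' processing notes, bcl2fastq 2.20, STAR 2.5.3a and RSEM were used with GRCm38.p5. Per the file headers, edgeR models compared the groups in pairs. Which edgeR version, low-count filter, scaling, annotation release and strand setting the authors used is not stated in the labels or headers. The log2 values are the authors' log2 fold changes and log2 mean CPM, per the file headers. Per the file headers, a likelihood-ratio statistic, here called a score, was deposited for each feature. Each deposited p-value came unadjusted and as a Benjamini-Hochberg FDR over the features of its table.

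The deposited p followed the chi-square tail of the statistic to within 5.0e-06. Libraries count as replicates by label, and the tables show neither their depth nor their spread, so no counting interval is given. Changes were called at the authors' FDR under 0.05, 2-sided, the test the design named where no counts per library were given. Implied means assume equal weight of both groups in the deposited mean. Transcript lengths, positions and overlaps came from GENCODE M21, which held 99.97% of the transcript rows, and mean lengths were weighted by transcript level. The approximate test of the tissue difference took both tissues of a mouse as uncorrelated and was tested on simulated data. It ran in Python 3.11.15 with scipy 1.17.1.

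The members, marker lists and substrate classes were chosen with earlier results of these data known. The named carriers are those past the FDR in a comparison or tissue difference and the highest per kilobase of each class, with up to 4 genes of smallest FDR from other lists, and Ucp1, Ucp2 and Ucp3. Members named beside cell type markers, and Slc25a36, were chosen after their values were seen. Some genes of the family are left unreported. The alternatives were FDR thresholds of 0.01 and 0.1, a minimum log2 mean CPM of 1, a minimum log2 fold change of 0.5, the transcript tables, and for the tissue difference correlations of 0.3 and -0.3 and centring.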

Additional observations from a re-analysis of the deposited data

Results flagged for a closer look

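The effect of a diet differed between iWAT and liver, by the approximate test of the difference itself, in 10 cases. For CR they were Slc25a1 (2.81 on the log2 scale, iWAT minus liver), Slc25a10 (2.33), Slc25a33 (1.56) and Slc25a24 (-1.21). For TR they were Slc25a1 (3.28), Slc25a10 (2.25), Slc25a33 (2.16), Slc25a11 (0.97), Slc25a24 (-1.65) and Slc25a42 (-0.91). Outlying libraries could not be looked for, since the tables hold no values per library.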

How the results depend on the processing

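No paired analysis was possible because the deposited tables hold no values per library, and leaving out single libraries could not be run for the same reason. Of the alternative counts, 59 stayed within 1.5 times the main count and 21 moved. The 59 include counts of 0 that stayed at 0, such as all those of CR minus TR in both tissues. A stricter threshold or an added minimum fold change could not have moved these. At an FDR under 0.01, 3 carriers were higher in CR liver (5 in the main count), 1 was lower in TR liver (2), 0 were lower in TR iWAT (2), and 0 had a lower iWAT effect in CR (1) or in TR (2). At an FDR under 0.1, 11 were higher in CR iWAT (7) and 2 lower (0). With a log2 fold change of at least 0.5, 2 were higher in CR liver (5) and 1 lower in TR liver (2). By transcripts, 2 carriers were higher in CR liver (5), 3 higher (7) and 0 lower (2) in TR liver, 3 higher in CR iWAT (7) and 1 lower in TR iWAT (2). At a correlation of 0.3 between tissues, 7 carriers had a higher (3) and 2 a lower (1) iWAT effect in CR, and 8 a higher one in TR (4). At -0.3, 0 had a lower effect in CR (1) and 1 in TR (2). With genes under a log2 mean CPM of 1 removed, 0 had a lower iWAT effect in CR (1) and 1 in TR (2). Centring moved no count. Of the calls of single carriers, 14 were lost and 27 kept at an FDR under 0.01, 6 lost and 25 kept with the minimum fold change, 17 lost and 14 kept on the most abundant transcript, and 3 lost and 7 kept at the correlation of -0.3. The alternatives were run for carriers past the threshold, and on the most abundant transcript none of those changed direction. The cause was not tested.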

Other observations

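Transcript tables gave detail on Slc25a1 that the gene tables do not show. In iWAT all 5 Slc25a1 transcripts past the threshold rose on both diets, 2 of them protein-coding and 3 annotated as retained introns. The coding transcript Slc25a1-201 had 1166 implied CPM in CR and 175 in AL, and 1766 in TR and 170 in AL from the TR table. The retained-intron transcript Slc25a1-202 had 684 CPM in CR and 77.7 in AL, and 904 in TR and 75.9 in AL from the TR table. The deposited log2 fold changes were 2.73 in CR and 3.38 in TR for Slc25a1-201 and 3.14 in CR and 3.58 in TR for Slc25a1-202. Reads of a gene are divided among its transcripts by estimate, so the split between them is less certain than their sum.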
